A study of Homo sapiens with 6 samples.

Results

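The genes described here are 10 genes of cellular iron uptake, storage, export and sensing, chosen by name and measured in LoVo, a cell line from a human colorectal adenocarcinoma, in which LGR5 was stably knocked down. Of the 10 genes, 8 have a probe in the platform annotation used here, with 13 probes among the 47323 on the array. FTH1, the ferritin heavy chain, and IREB2, the iron regulatory protein IRP2, have none listed and were not analysed. All 8 genes with a probe had at least 1 probe above the noise threshold, an intensity of 16.5, on both arrays of a group, and 10 of the 13 probes passed. The same filter left 12111 of 20039 named genes for testing.

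RNA from 6 samples was hybridised to Illumina bead arrays, with 2 samples in each of 3 groups. Cells of the shLGR5-1 and shLGR5-2 groups carry a different lentiviral hairpin against LGR5 each, and cells of the shCTL group carry the pLKO.1 control, described in the labels as a non-targeting hairpin. All 3 groups were kept under puromycin, and the labels do not say whether a line is a pool or a clone, nor whether the replicates are separate cultures. A p-value here thus speaks only to how far these samples scatter, and that scatter may be technical. Intensities are given as the authors deposited them, with small negative values for dim probes. Every fold change, other than those given as "at least", was taken after adding 16 to the intensity and is fitted with limma, which also gives its standard error (SE). Adding 16 makes the fold changes of dim genes smaller than the ratios of their intensities.

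Cells take up iron as transferrin bound to the transferrin receptor, reduce it in the endosome and carry it into the cytosol, where it is used, stored in ferritin or exported through ferroportin. A pair of iron regulatory proteins, IRP1 and IRP2, bind hairpins called iron-responsive elements in the mRNAs of these genes when iron is short, which blocks translation of ferritin mRNA and stabilises transferrin receptor mRNA. In the gut, absorptive cells use some of the same parts to pass dietary iron from the lumen to the blood. LGR5 itself is an R-spondin receptor of intestinal stem cells and amplifies Wnt signalling.

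Sequence for the genes that the results turn on was taken from RefSeq (GRCh38.p14), which listed a promoter for 9 of the 10 genes. The first 4 lines show the 100 bases before the transcription start of the genes with the largest falls, on the gene's strand. Capitals mark 3 motifs, searched on both strands, and none of the marked runs overlap. One is ACGTG, which is known as the core of the element that hypoxia-inducible factors bind. Another is TATAAA, the common form of the TATA box that helps to place the start of transcription. The last is GGGCGG, the GC box to which factors of the Sp family bind in many promoters.
TFRC, chr3:196082091-196082190, minus strand: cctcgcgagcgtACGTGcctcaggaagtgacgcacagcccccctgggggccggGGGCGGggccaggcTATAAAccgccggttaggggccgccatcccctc
NCOA4, chr10:46030624-46030723, minus strand: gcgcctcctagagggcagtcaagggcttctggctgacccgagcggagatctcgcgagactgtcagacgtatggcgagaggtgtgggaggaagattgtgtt
SLC40A1, chr2:189580787-189580886, minus strand: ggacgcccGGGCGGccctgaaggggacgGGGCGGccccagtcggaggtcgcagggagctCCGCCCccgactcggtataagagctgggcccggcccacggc
HEPH, chrX:66164147-66164246, plus strand: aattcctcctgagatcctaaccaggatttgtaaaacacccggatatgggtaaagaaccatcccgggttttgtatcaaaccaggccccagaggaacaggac
FTL, chr19:48965329-48965358, plus strand: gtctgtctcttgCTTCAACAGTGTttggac
The FTL line is the end of the window that RefSeq's table gives around the start, inside the transcript, and its capitals match the bulged cytosine and loop of an iron-responsive element, searched on the gene's strand as a C, 5 bases of any kind, CAGTG and 1 further base.

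Among the promoters shown, the TFRC window holds all 3 motifs, the SLC40A1 window holds 3 GC boxes, and the NCOA4 and HEPH windows hold none of the 3. Of the other iron genes with an entry, FTL also holds the hypoxia core, and STEAP3, FTL and ACO1 also hold the GC box. Over 27305 promoters, the same 100 bases hold the hypoxia core in 9.13%, the TATA box in 5.34% and the GC box in 31.3%. The iron-responsive letters occur in the first 50 transcribed bases of 1.68% of these genes and, among the iron genes with an entry, in FTL only, starting at base 33 of the transcript. Elements elsewhere in the transcripts, such as those in the 3′ end of TFRC mRNA, lie outside these windows and were not searched.

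LGR5 was dim and lower with each hairpin. Its probe read -1.1 and 7.0 in shLGR5-1 cells and 12.5 and 19.2 in shLGR5-2 cells, against 44.4 and 49.2 in shCTL cells (limma adjusted p = 0.00244 for shLGR5-1 and 0.0266 for shLGR5-2). The shLGR5-2 call for LGR5 was lost on leaving out any 1 of the 4 arrays compared (adjusted p 0.0733 to 0.141). Replicate arrays correlated at 0.971 to 0.989 over the tested probes, and arrays of different groups at 0.750 to 0.893. All 8 colorectal epithelial markers examined were above the threshold in shLGR5-1 and shCTL cells, and 6 of 8 were in shLGR5-2 cells, where KRT20 and VIL1 were not. Of 3 erythroid markers with a probe, HBA2 (alpha globin) read 8755 and 8514 in shLGR5-1 cells, -9.5 and 13.6 in shLGR5-2 cells and 3834 and 3418 in shCTL cells, ALAS2 was below the threshold on all 6 arrays and HBB on 4 of 6. The summed erythroid level was 8552 to 8768 in shLGR5-1, 3.1 to 40.1 in shLGR5-2 and 3428 to 3849 in shCTL. Of 4 leukocyte markers with a probe, PTPRC and CD3E, the defining ones, were near background (above the threshold on 1 and 0 of 6 arrays). CD68, a lysosomal protein of macrophages, read 1193 and 1322 in shLGR5-1 cells and 146 and 140 in shLGR5-2 cells, against 1103 and 1148 in shCTL cells. CD14 read 73.4 and 145 in shLGR5-1 cells and 122 and 148 in shLGR5-2 cells, against 11.5 and 25 in shCTL cells. The summed leukocyte level was 1332 to 1473 in shLGR5-1, 273 to 287 in shLGR5-2 and 1128 to 1179 in shCTL. The summed fibroblast, endothelial and hepatocyte levels did not exceed 172.5 on any array. The part of these markers in the results was not tested.

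Under shLGR5-1 the iron genes changed mostly downward, led by the transferrin receptor. Of the 8 genes tested, 5 fell and 2 rose against shCTL, where 69.8% of all tested genes were called, 30.8% as lower and 38.9% as higher. The median log2 fold change of the 8 was -1.56, also with SLC40A1 at its bound, against 0.28 over all tested genes. Under shLGR5-2, 4 of the 8 fell and none rose, where 40.1% of all tested genes were called, 20.6% as lower and 19.4% as higher, and the medians were -0.43 for the iron genes, also with SLC40A1 and HEPH at their bounds, and 0.00 over all genes. The difference between the hairpin lines itself passed the test for 5 of the 8 genes, 2 higher and 3 lower in shLGR5-1 cells, where 71.4% of all tested genes were called, 38.5% as higher and 32.9% as lower. SLC40A1, counted as fallen in both hairpin comparisons, passed the filter on the shCTL arrays alone, so against shCTL it could only be lower. Both hairpin comparisons share the same shCTL arrays. The counts of calls therefore sit among a large general change, and the single genes differ widely in size. The genes were chosen with earlier results of these data known, so their counts and medians are no independent comparison with all genes.

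**Figure D1:**
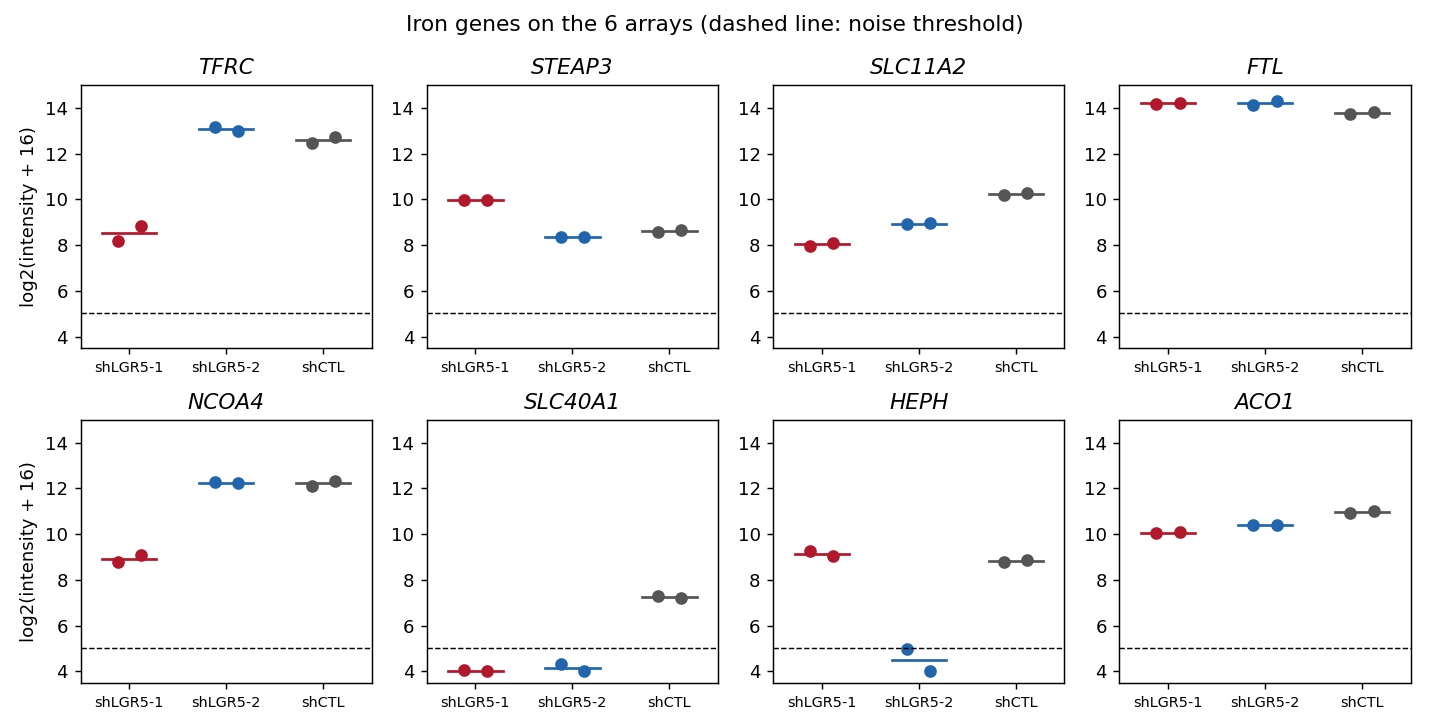
Log2(intensity + 16) of the brightest probe of each iron gene (vertical axes) on the 2 arrays of each group (points, with the mean as a bar), and the noise threshold as a dashed line. TFRC and NCOA4 are low on the shLGR5-1 arrays alone, HEPH on the shLGR5-2 arrays alone, and SLC40A1 on all 4 knockdown arrays.

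Of the uptake genes, TFRC, which encodes the transferrin receptor that takes in iron-loaded transferrin, was sharply lower with 1 hairpin only. Its single probe read 278 and 446 in shLGR5-1 cells and 9212 and 8193 in shLGR5-2 cells, against 5668 and 6678 in shCTL cells. The 2 shLGR5-1 arrays thus lay far below all the others, and the shLGR5-2 arrays lay above both shCTL arrays. TFRC fell 16.7-fold under shLGR5-1 (-4.06 ± 0.25 on the log2 scale, with SE; 2 arrays against 2; adjusted p = 4.11e-04 by limma), and 269 of the 12111 tested genes fell further. Under shLGR5-2 its log2 fold change was 0.50, with a 95% interval of -0.16 to 1.15, and did not pass the test (adjusted p = 0.190). The difference between the lines was -4.56 ± 0.25 (adjusted p = 2.11e-04), with 115 genes further down.

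STEAP3, the endosomal ferrireductase that converts transferrin-delivered ferric iron to ferrous iron, moved the other way under shLGR5-1. Its bright probe read 995 and 979 in shLGR5-1 cells and 311 and 309 in shLGR5-2 cells, against 364 and 394 in shCTL cells, with no overlap between any groups. STEAP3 rose 2.54-fold under shLGR5-1 (1.35 ± 0.12, adjusted p = 8.63e-04), and shLGR5-1 exceeded shLGR5-2 by 3.08-fold (1.62 ± 0.12, adjusted p = 4.27e-04). Under shLGR5-2 the log2 fold change was -0.27, with a 95% interval of -0.59 to 0.04 (adjusted p = 0.143). The other 2 STEAP3 probes were not kept: 1 was below the threshold on all 6 arrays, and the other exceeded it on a single shLGR5-1 array, at 23.5.

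SLC11A2 encodes DMT1, the proton-coupled transporter that carries ferrous iron across the endosomal membrane and the enterocyte brush border. It read 236 and 259 in shLGR5-1 cells and 462 and 491 in shLGR5-2 cells, against 1163 and 1228 in shCTL cells. Every knockdown array was below both controls, and the shLGR5-1 arrays were the lowest. SLC11A2 fell 4.60-fold under shLGR5-1 (-2.20 ± 0.13, adjusted p = 3.63e-04) and 2.46-fold under shLGR5-2 (-1.30 ± 0.13, adjusted p = 0.00240). The fall was larger under shLGR5-1, by 1.87-fold (adjusted p = 0.00272). The array annotation used here does not say which SLC11A2 transcripts, with or without an iron-responsive element, the probe detects.

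Among the storage genes, FTL, the ferritin light chain, was bright on every array and slightly higher with both hairpins. Its first probe read 18271 and 19175 in shLGR5-1 cells and 17667 and 20282 in shLGR5-2 cells, against 13456 and 14511 in shCTL cells. The second probe read 19547 and 18636 in shLGR5-1 cells and 16773 and 19340 in shLGR5-2 cells, against 13521 and 13550 in shCTL cells. On both probes all 4 knockdown arrays lay above both controls and the 2 hairpin lines overlapped. FTL was 1.34-fold higher under shLGR5-1 on the first probe (0.42 ± 0.14, adjusted p = 0.0458) and 1.41-fold on the second (0.50 ± 0.13, adjusted p = 0.0255), and both calls were lost on leaving out any 1 array (adjusted p up to 0.170 and 0.0979). With the replicate number as a block the first probe's adjusted p was 0.0549. Under shLGR5-2 the log2 fold changes were 0.44 and 0.41 (adjusted p = 0.0638 and 0.0701). The 95% interval of the difference between the lines ran from -0.37 to 0.34 on the first probe. Only 214 to 391 probes on an array were brighter than the first FTL probe, and ferritin genes have many near-identical pseudogenes, so the transcript read is uncertain.

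FTH1, the partner chain of FTL, had no listed probe. A probe listed for FTH1P3, a processed pseudogene of FTH1, was looked at after the values had been seen, and whether it reads the pseudogene or FTH1 mRNA cannot be told apart here. It read 3492 and 2928 in shLGR5-1 cells and 3990 and 3550 in shLGR5-2 cells, against 1853 and 1687 in shCTL cells, so all 4 knockdown arrays lay above both controls. The rise was 1.80-fold under shLGR5-1 (adjusted p = 0.00703) and 2.12-fold under shLGR5-2 (adjusted p = 0.00708).

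NCOA4, the receptor that delivers ferritin to autophagosomes for iron release, showed the same split between the lines as TFRC. It read 418 and 522 in shLGR5-1 cells and 4988 and 4751 in shLGR5-2 cells, against 4394 and 5128 in shCTL cells. The shLGR5-1 arrays stood apart, and the shLGR5-2 arrays lay between the controls. NCOA4 fell 9.87-fold under shLGR5-1 (-3.30 ± 0.17, adjusted p = 3.07e-04). Under shLGR5-2 the log2 fold change was 0.04, with a 95% interval of -0.40 to 0.47 (adjusted p = 0.888). The lines differed by -3.34 ± 0.17 (adjusted p = 1.70e-04).

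Both export genes lost their signal in at least 1 line. SLC40A1 encodes ferroportin, the only known iron exporter of mammalian cells. Its brighter probe read 0.5 and -15.9 in shLGR5-1 cells and 4.0 and -10.3 in shLGR5-2 cells, against 139 and 132 in shCTL cells. None of the 4 knockdown arrays was above the noise threshold, so each fold is a bound: SLC40A1 was at least 8.24-fold lower under shLGR5-1 (adjusted p = 2.93e-04) and at least 8.24-fold lower under shLGR5-2 (adjusted p = 4.21e-04). The mean intensities behind these bounds were -7.7 ± 11.6 in shLGR5-1 and -3.15 ± 10.1 in shLGR5-2, against 136 ± 5.16 in shCTL (SD, n = 2 each). A bound of this kind takes the dim arrays at the threshold, and since both lines were at background, their difference cannot be sized.

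The second SLC40A1 probe gave a smaller difference at a lower signal. It read 1.7 and 14.4 in shLGR5-1 cells and 25.9 and 22.4 in shLGR5-2 cells, against 32.7 and 24.2 in shCTL cells. It was at least 1.71-fold lower under shLGR5-1 (adjusted p = 0.0388), a call made in 3 of 10 alternatives (adjusted p 0.0118 to 0.186), and lost with a replicate block (0.0646) and on leaving out any 1 array other than shLGR5-1 replicate 2. Under shLGR5-2 its log2 fold change was -0.14 (95% interval -0.89 to 0.60, adjusted p = 0.735), and the arrays overlapped with shCTL. The 2 probes therefore disagree on ferroportin mRNA under shLGR5-2.

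HEPH, or hephaestin, is the copper ferroxidase that works with ferroportin on the basolateral side of enterocytes. It read 596 and 511 in shLGR5-1 cells and 15.1 and -7.9 in shLGR5-2 cells, against 429 and 449 in shCTL cells. Neither shLGR5-2 array was above the threshold, while both shLGR5-1 arrays were above both controls. HEPH was at least 26.7-fold lower under shLGR5-2 (adjusted p = 0.00126), with group means of 3.6 ± 16.3 in shLGR5-2 and 439 ± 14.1 in shCTL (SD, n = 2 each). Under shLGR5-1 its log2 fold change was 0.32, with a 95% interval of -0.54 to 1.18 (adjusted p = 0.439). HEPH was at least 33.5-fold higher in shLGR5-1 than in shLGR5-2 cells (adjusted p = 3.73e-04). A second HEPH probe was below the threshold on all 6 arrays.

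ACO1 encodes IRP1, a cytosolic aconitase that binds iron-responsive elements when it lacks its iron-sulphur cluster. It read 1042 and 1074 in shLGR5-1 cells and 1327 and 1339 in shLGR5-2 cells, against 1935 and 2076 in shCTL cells, with no overlap between groups. ACO1 fell 1.88-fold under shLGR5-1 (-0.91 ± 0.12, adjusted p = 0.00245) and by less under shLGR5-2 (-0.58 ± 0.12, adjusted p = 0.0198). The shLGR5-2 call was lost on leaving out any 1 of the 4 arrays (adjusted p 0.0594 to 0.0986). The difference between the lines was -0.33 (95% interval -0.64 to -0.02) and did not pass after adjustment (0.0619), although it did in 6 of 13 alternatives.

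**Figure D2:**
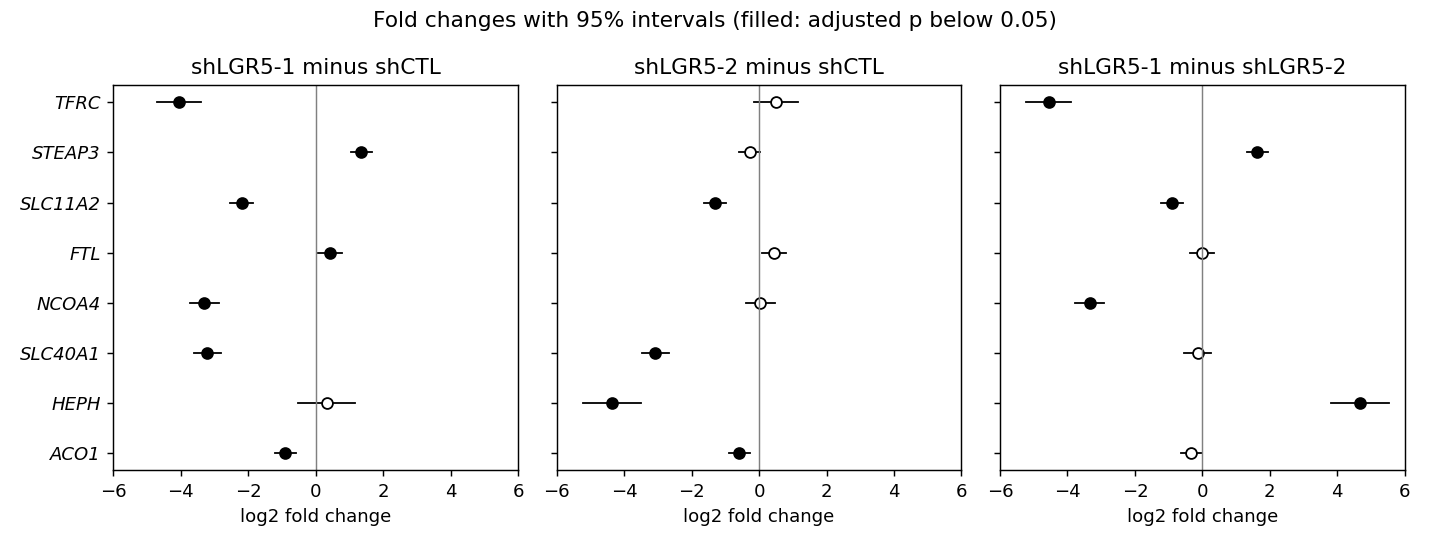
Log2 fold change (horizontal axes) of the 8 iron genes in the comparisons of shLGR5-1 with shCTL, shLGR5-2 with shCTL and shLGR5-1 with shLGR5-2; points are limma estimates, lines their 95% intervals, and filled points have an adjusted p below 0.05. TFRC and NCOA4 lie at -4.56 and -3.34 between the lines and HEPH on the other side of 0; fitted values for SLC40A1 and for HEPH in comparisons with shLGR5-2 depend on the offset, since those arrays were at background.

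The 8 genes thus fell into different patterns across the lines. SLC11A2, SLC40A1 (by its brighter probe) and ACO1 were called lower with each hairpin, and all 4 knockdown arrays lay below both controls. That SLC40A1 probe was kept through the shCTL arrays alone, so its direction was set by the filter. The shLGR5-2 call of ACO1 was lost on leaving out any 1 of the 4 arrays compared. Of all tested genes, 30.8% were called lower under shLGR5-1 and 20.6% under shLGR5-2, against the same shCTL arrays. The share of all genes called lower with both hairpins was not counted. TFRC, NCOA4 and STEAP3 were called under shLGR5-1 and not under shLGR5-2, and their difference between the lines passed the test. HEPH was called under shLGR5-2 and not under shLGR5-1, again with a difference that passed. Of all tested genes, 69.8% were called under shLGR5-1, 40.1% under shLGR5-2 and 71.4% between the lines. How many of all genes show either pattern was not counted. Changes of at least 2-fold were called for 5 of the 8 genes under shLGR5-1, against 49.4% of all genes, and for 3 of the 8 under shLGR5-2, against 23.5%. Between the lines this count was 4 of the 8, against 52.3%.

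Under shLGR5-1, fold changes over the array also ran lower in genes of longer genomic span (Spearman correlation -0.327 across 12104 genes, which are not independent replicates), against 0.0103 under shLGR5-2. Among the 1210 genes in TFRC's decile of genomic span, the median under shLGR5-1 was 0.19 and the 10th percentile -2.83, so TFRC at -4.06 lay below it. In the decile that holds both NCOA4 and SLC40A1 the median was 0.36 and the 10th percentile -2.27, and NCOA4 at -3.30 lay below that. SLC40A1 did so too, at a fitted -3.22 that depends on the offset. In the decile of SLC11A2 and ACO1 the median was -0.47 and the 10th percentile -3.43, and neither gene lay below it. The part of the span trend in these falls was not tested.

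**Figure D3:**
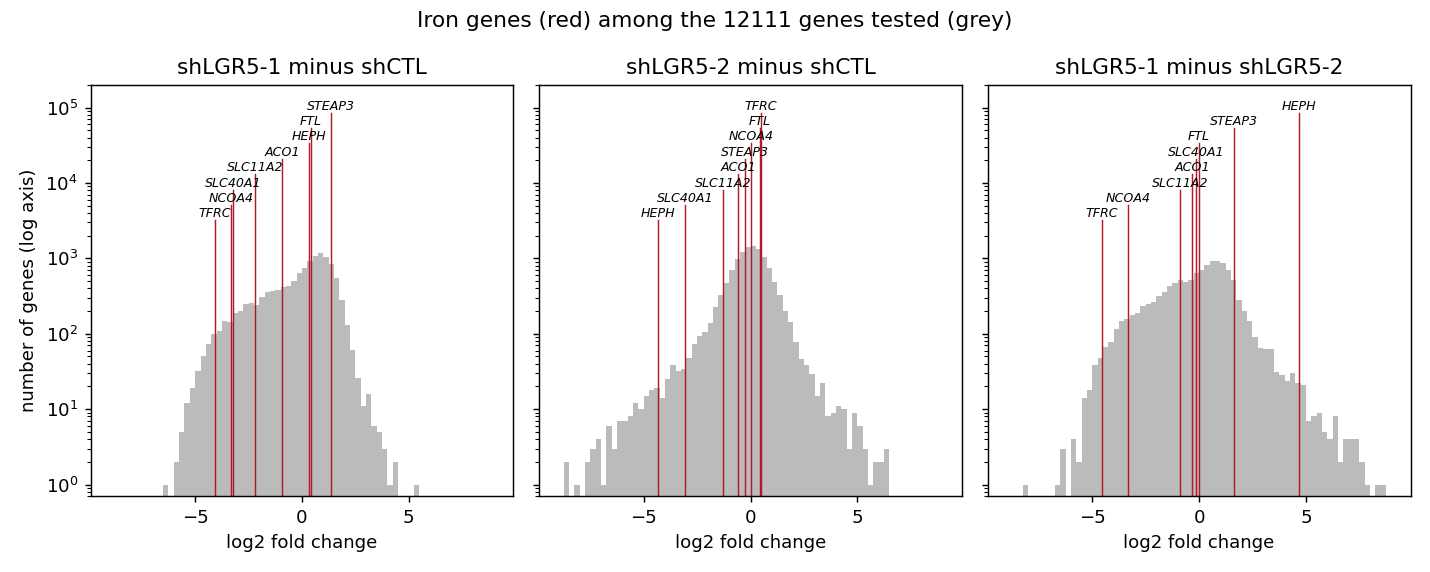
Histograms of log2 fold changes (horizontal axes) over the 12111 tested genes in the comparisons of shLGR5-1 with shCTL, shLGR5-2 with shCTL and shLGR5-1 with shLGR5-2 (grey, number of genes on a log axis), with the 8 iron genes as red lines. TFRC lies in the lower tail under shLGR5-1, with 269 genes below it, and HEPH lies there under shLGR5-2, where its place depends on the offset.

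Other genes of iron handling, taken from 5 lists of 75 genes that leave out the genes above, changed in both directions. Of 59 tested, 28 rose and 20 fell under shLGR5-1 (median 0.53, or 0.48 with genes at background at their bounds, against 0.28 over all genes), and 16 rose and 13 fell under shLGR5-2 (median -0.04, against 0.00). The all-gene median under shLGR5-1 was 0.49 with the strict filter on dim probes, and the medians of the lists were not taken under that filter. The shares called were 81.4% and 49.2%, against 69.8% and 40.1% of all genes. Changes of at least 2-fold were called for 27 of the 59 under shLGR5-1, against 49.4% of all genes, and for 13 under shLGR5-2, against 23.5%. The median absolute log2 fold change under shLGR5-1 was 0.93, against 1.03 over all genes. Both counts of calls, under shLGR5-1 and under shLGR5-2, fell when either shCTL array was left out, the shLGR5-2 count by the larger share.

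All 6 genes of iron and oxygen sensing were called under shLGR5-1, against 69.8% of all tested genes. Of these, 4 fell and 2 rose, with a median of -1.91, against 0.28 over all genes. Under shLGR5-2, 1 rose and 1 fell, or 33.3% called against 40.1% of all genes, with a median of 0.15, against 0.00. HIF1A, the hypoxia-inducible factor subunit, read 4.5 and 12.2 in shLGR5-1 cells and 428 and 312 in shLGR5-2 cells, against 256 and 194 in shCTL cells on its brightest probe. It was at least 13.6-fold lower under shLGR5-1 (adjusted p = 6.35e-04), and its other 2 probes, also at background on both shLGR5-1 arrays, were at least 7.39-fold and 4.54-fold lower. Under shLGR5-2 the brightest HIF1A probe did not pass (0.67, adjusted p = 0.106), while the other 2 did (1.17 and 0.93). EPAS1, which encodes HIF-2 alpha and carries an iron-responsive element in its mRNA, read 800 and 731 in shLGR5-1 cells and 98.7 and 124 in shLGR5-2 cells, against 544 and 546 in shCTL cells. It fell 4.43-fold under shLGR5-2 (adjusted p = 0.00102), and its rise of 1.39-fold under shLGR5-1 (adjusted p = 0.0428) was lost on leaving out any 1 array (0.0755 to 0.144) and with a replicate block (0.0711). CUL1 and SKP1, subunits of the ubiquitin ligase through which FBXL5 degrades the iron regulatory proteins, fell 5.93-fold and 2.40-fold under shLGR5-1. Under shLGR5-2 they had log2 fold changes of -0.52 and 0.05 that did not pass. A second SKP1 probe had -1.91 under shLGR5-1 and -0.50 under shLGR5-2, where it did not pass either (limma adjusted p = 0.0541).

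Among 12 other genes of iron transport and binding, 3 rose and 5 fell under shLGR5-1 and 4 rose and 3 fell under shLGR5-2. The shares called were 66.7% under shLGR5-1, near the 69.8% of all tested genes, and 58.3% under shLGR5-2, against 40.1%. CYBRD1, the duodenal ferric reductase of the brush border, read 15.9 and 9.0 in shLGR5-1 cells and 397 and 318 in shLGR5-2 cells, against 75.1 and 96.1 in shCTL cells. It was at least 5.16-fold lower under shLGR5-1 (adjusted p = 0.00158) and 3.67-fold higher under shLGR5-2 (adjusted p = 0.00346), and a second probe was at least 3.34-fold lower under shLGR5-1 and had a log2 fold change of 2.06 under shLGR5-2. STEAP2, a metalloreductase related to STEAP3, read 8.2 and 12.9 in shLGR5-1 cells and 215 and 208 in shLGR5-2 cells, against 273 and 263 in shCTL cells. It was at least 16.3-fold lower under shLGR5-1 (adjusted p = 2.52e-04), opposite in direction to STEAP3. SLC39A8, a zinc, manganese and iron importer, fell 6.11-fold under shLGR5-1 (adjusted p = 4.43e-04), with a log2 fold change of -3.33 on its second probe. Its 2 probes differed under shLGR5-2, at -0.60 and -3.20, and the call of the brighter one (adjusted p = 0.0471) was lost on leaving out any 1 array (0.129 to 0.180) and with a replicate block (0.0768). LCN2, the siderophore-binding lipocalin, fell 1.98-fold under shLGR5-1 and 3.68-fold under shLGR5-2.

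Of the hepcidin axis, which sets body iron through the liver hormone hepcidin, only BMP6 and HFE of 6 genes were tested. BMP6, the ligand that induces hepcidin in liver, read 317 and 242 in shLGR5-1 cells and -5.3 and -6.5 in shLGR5-2 cells, against 152 and 140 in shCTL cells. It was at least 8.85-fold lower under shLGR5-2 (adjusted p = 4.09e-04), the same direction as HEPH, and 1.81-fold higher under shLGR5-1 (adjusted p = 0.00847, or 0.0584 without shCTL replicate 2). HFE, whose product binds the transferrin receptor, was near background and did not pass in either comparison (adjusted p = 0.282 and 0.300).

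In the list of haem synthesis, transport and breakdown, 9 of 17 genes rose and 3 fell under shLGR5-1 (median 0.91, against 0.28 over all genes), and 7 rose and 3 fell under shLGR5-2 (median -0.04, against 0.00). The shares called were 70.6% under shLGR5-1, near the 69.8% of all tested genes, and 58.8% under shLGR5-2, against 40.1%. HMOX1, the haem oxygenase that frees iron from haem, read 252 and 273 in shLGR5-1 cells and 146 and 140 in shLGR5-2 cells, against 95.4 and 76.8 in shCTL cells, and rose 2.74-fold under shLGR5-1 and 1.57-fold under shLGR5-2. SLC46A1, a folate transporter that also carries haem, rose 3.95-fold under shLGR5-1 and 1.71-fold under shLGR5-2. The shLGR5-2 calls of HMOX1 (adjusted p = 0.0263) and SLC46A1 (0.0366) were lost on leaving out any 1 array, with adjusted p up to 0.116 and 0.152, and with a replicate block (0.0501 and 0.0681). FECH, the enzyme that inserts iron into haem, read 118 and 82.1 in shLGR5-1 cells and 126 and 114 in shLGR5-2 cells, against 356 and 381 in shCTL cells, and fell 3.35-fold under shLGR5-1 and 2.83-fold under shLGR5-2. On a dimmer FECH probe the shLGR5-2 log2 fold change was -0.95 and did not pass (adjusted p = 0.126). BLVRB, a biliverdin reductase, fell 3.61-fold under shLGR5-2 (adjusted p = 7.89e-04), with 0.27 under shLGR5-1 (adjusted p = 0.107).

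Of 22 genes of iron-sulphur cluster assembly, 13 rose and 8 fell under shLGR5-1 (median 0.60, against 0.28 over all genes), and 4 rose and 5 fell under shLGR5-2 (median -0.08, against 0.00). The shares called were 95.5% under shLGR5-1, against 69.8% of all tested genes, and 40.9% under shLGR5-2, near the 40.1% of all genes. The changes were not larger than usual: under shLGR5-1, 9 of the 22 were called at 2-fold or more, against 49.4% of all genes. The median absolute log2 fold change there was 0.76, against 1.03 over all genes. HSPA9, the mitochondrial chaperone mortalin that passes clusters on, read 2115 and 2315 in shLGR5-1 cells and 7973 and 8905 in shLGR5-2 cells, against 11918 and 12927 in shCTL cells. It fell 5.58-fold under shLGR5-1 (adjusted p = 3.40e-04) and 1.47-fold under shLGR5-2, where the call (adjusted p = 0.0329) was lost on leaving out any 1 array (0.0631 to 0.146). FDX1, a mitochondrial ferredoxin, was at least 4.76-fold lower under shLGR5-1, with 7.2 and 6.2 in shLGR5-1 cells and 59.7 and 71.8 in shLGR5-2 cells, against 81.8 and 75 in shCTL cells. CIAO3 and CIAPIN1, of the cytosolic assembly machinery, rose 3.74-fold and 2.98-fold under shLGR5-1. Their log2 fold changes under shLGR5-2 were -0.23 and 0.08 and did not pass.

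**Figure D4:**
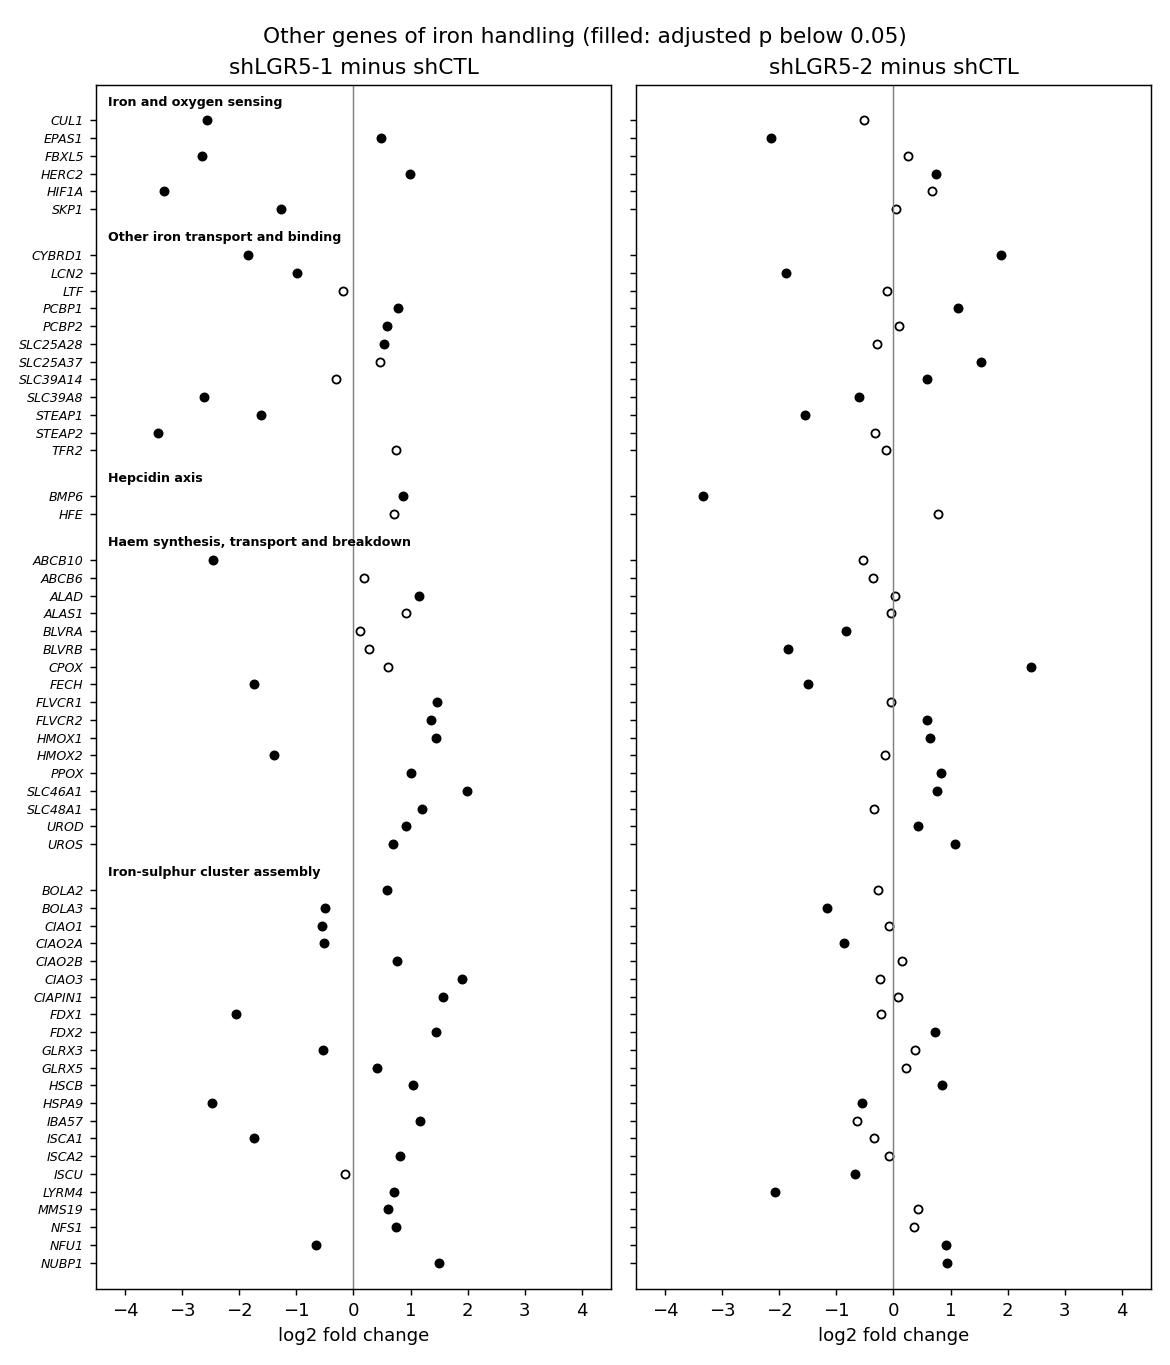
Log2 fold change (horizontal axes) of the 59 other iron-handling genes tested, grouped by list, under shLGR5-1 (left) and shLGR5-2 (right) against shCTL; filled points have an adjusted p below 0.05. Under shLGR5-1 the sensing genes HIF1A, CUL1 and SKP1 lie to the left of 0 and most haem and iron-sulphur genes to the right.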

How the data were processed

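Total RNA of 6 LoVo samples, 2 per group, was measured on Illumina bead arrays. The deposited table holds 1 linear intensity per probe and array. GenomeStudio is named in the submitters' processing notes, and no label or header states a background or normalization method. In the values, 30.5% lie below 0, as after background subtraction, and arrays differ by at most 0.7 at any rank, as after quantile normalization. The names of 12 other value columns match no sample's labels, and those columns were left out.

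Negative values were raised to 0, and log2(intensity + 16) was used. The noise SD, 10.0, was estimated from the negative values as their root mean square, and a probe was kept if above 16.5 on both arrays of at least 1 group, which left 21792 probes. All arrays entered 1 limma model (limma 3.58.1, R 4.3.3, 3 residual and 1.99 prior degrees of freedom) with group as its term. Two-sided p-values had a Benjamini-Hochberg adjustment across the kept probes, and calls were made below 0.05. In counts a gene is its brightest kept probe. Where a group has no array above the threshold, the fold is given as "at least", from mean log2 intensities with dim values raised to the threshold. Such a bound has no offset and takes no account of the spread between arrays. The adjusted p beside it belongs to the fitted difference with the offset, which can be smaller than the bound. Probes were named through the platform annotation, updated through RefSeq (GRCh38.p14): 30113 probes have 1 gene, 8 several and 17202 none listed. Named genes are all the iron genes and, of each other list, up to 4 with the smallest adjusted p against shCTL. The fit was tested on simulated data, but the outcome is not given here and no support is drawn from it. The members and lists were chosen with earlier results of these data known. The arrays' number limits the precision.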

Additional observations from a re-analysis of the deposited data

Results flagged for a closer look

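The effects of the 2 hairpins differed by the limma test of shLGR5-1 against shLGR5-2 for 5 iron genes, where 71.4% of all tested genes also differed. The log2 difference was -4.56 for TFRC, -3.34 for NCOA4 and -0.90 for SLC11A2, lower in shLGR5-1 cells, and 1.62 for STEAP3, higher in shLGR5-1 cells. HEPH was at least 33.5-fold higher in shLGR5-1 cells; its fitted log2 difference of 4.67 ran from 3.40 to 7.15 over the alternatives, since the shLGR5-2 arrays were at background. Each was called in all of its 12 or 13 alternatives, with an adjusted p of at most 0.0169, and no explanation was tested.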

How the results depend on the processing

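Alternatives were an offset of 50, a floor of 1 with no offset, no or a strict filter on dim probes, 1 probe or the mean of probes per gene, a variance trend with a robust prior, arrays centred on their median, a replicate block and each array left out in turn. Over them the number of iron genes called was 6 or 7 under shLGR5-1, 3 to 5 under shLGR5-2 and 5 or 6 between the lines, and no called value reversed. Of 369 values for the iron probes, 332 kept their side of the threshold, of which 6, called neither before nor after, changed sign, while 22 lost a call and 15 gained one, those gains and losses all in FTL, ACO1 and the dim SLC40A1 probe. The strict filter leaves HEPH and SLC40A1 untested. With a floor of 1 the log2 fold changes of these genes at background were larger, -7.08 under shLGR5-1 and -6.08 under shLGR5-2 for SLC40A1 and -6.82 under shLGR5-2 for HEPH, which reflects the offset. The first FTL probe under shLGR5-2 was called in 5 of 13 alternatives (adjusted p 0.00465 to 0.223). Same-numbered arrays did not deviate together (correlations of -0.00898, 0.0182 and 0.00783), so the numbers are not taken to pair the samples. With the replicate block 6, 4 and 5 iron genes were called, and the log2 fold change of TFRC under shLGR5-1 was -4.06, as without it. No slide is given in the files or labels, and the non-normalized columns could not be given samples, so a slide block and neqc were not run. Genes near background have only bounds, which limits what can be said of SLC40A1, HEPH, HIF1A and LGR5.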
